A study of Mus musculus with 8 samples.

Results

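The protein-coding genes of the small subunit of the cytosolic ribosome were examined in ribosome footprints of mouse brain at postnatal day 5. They were chosen by symbol alone, as the Rps genes together with Rpsa, Fau and Rack1, the last of which the deposited table lists under its older name Gnb2l1. This gave 35 genes of the 21874 with a protein-coding transcript, and each was represented by the coding transcript that collected the most reads after scaling for library size. The mice carried the human SMN2 transgene on a disrupted mouse Smn gene, the Taiwanese model of severe spinal muscular atrophy on an FVB background. Footprints of ribosomes pulled down with an anti-SMN antibody (3 libraries) or with IgG (1 library) came from brains of Smn+/-; SMN2tg/0 littermates without disease signs, in which lysates had been digested with RNase I and the ribosomes pelleted before the pull-down. Footprints of ribosomes captured with RiboLace, a reagent for actively translating ribosomes (2 libraries), and of polysomes collected from sucrose gradients (2 libraries) came from brains of early symptomatic Smn-/-; SMN2tg/0 mice. All groups thus carried SMN2 on 1 allele, and no group was wild type. The labels name the libraries of a group biological replicates but not the animals behind them, so the p-values measure the spread between these libraries.

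The small subunit reads the message: its head and body close around the mRNA channel, its platform holds the exit side of that channel, and initiation factors assemble on it before the large subunit joins. Each of its proteins is present once per subunit, and they are built onto the 18S rRNA in the nucleolus and cytoplasm, and in humans loss of one copy of several of the genes causes Diamond-Blackfan anaemia. Messages of ribosomal proteins belong to the TOP class, which begins with a C followed by a run of pyrimidines and whose translation follows mTOR signalling. SMN, the protein that is scarce in the disease, assembles spliceosomal ribonucleoproteins and has also been found with ribosomes, whose messages the SMN pull-down was made to read.

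The sequences around the annotated transcription starts are shown first, because they carry the feature by which cells recognise messages of this class. Of the 35 genes, 26 matched the RefSeq promoter table (GRCm38.p6), and 8 of these (30.8%) had a C at the annotated start followed by at least 4 more C or T letters on the transcribed strand. The same was true of 7 of 38 large subunit genes (18.4%) and of 2.73% of the 15918 coding genes of the table that matched. The 8 runs are printed 5′ to 3′ as 15 bases before the start and the first 15 bases of the first exon, with the unbroken run of C and T from the start in capitals.
Fau: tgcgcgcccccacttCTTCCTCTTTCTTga
Rack1: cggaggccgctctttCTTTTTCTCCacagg
Rps10: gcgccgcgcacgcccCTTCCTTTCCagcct
Rps15a: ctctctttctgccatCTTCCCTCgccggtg
Rps18: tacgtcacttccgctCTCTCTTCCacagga
Rps21: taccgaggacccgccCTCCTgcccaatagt
Rps27: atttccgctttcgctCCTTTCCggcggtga
Rps6: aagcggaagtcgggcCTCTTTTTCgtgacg

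The windows lie across the start of exon 1, of Fau at chr19:6057932-6057961 (plus strand), Rack1 at chr11:48800345-48800374 (plus strand), Rps10 at chr17:27635230-27635259 (minus strand) and Rps15a at chr7:118116133-118116162 (minus strand). The others lie at Rps18, chr17:33955651-33955680 (minus strand), Rps21, chr2:180257364-180257393 (plus strand), Rps27, chr3:90213634-90213663 (minus strand) and Rps6, chr4:86857353-86857382 (minus strand). The run was longest in Fau, at 13 letters, and shortest in Rps21, at 5. A run of at least 8 C or T letters anywhere within 15 bases of the start was present in 11 of the 26 small subunit genes (42.3%) and in 14.1% of the matched coding genes. A match describes these letters at an annotated start, and gives no measure of the start used in these brains. Rps14, Rps20, Rps27a, Rps29 and Rps4l were among the members with no entry.

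Coding genes held 133295 to 237760 reads in the SMN libraries, 206690 in IgG, 39375 and 47846 in RiboLace and 1661834 and 2295393 in polysomes. Levels are given as CPM, counts scaled to a total of 1000000 coding reads, with factors by trimmed mean of M values (TMM) over the 8 libraries. SMN replicate 2 stood apart, with a chi-square of 4.27 to 5.00 per gene against the other pull-downs, where those differed among themselves by 1.38 to 1.63. Smn1 had 173, 104 and 151 CPM in the SMN libraries and 30.7 CPM in IgG, and 40.3 and 0 CPM in RiboLace and 28.0 and 30.3 CPM in polysomes of Smn-/- brains, so reads were still counted on the disrupted gene. Every listed marker of brain cell types had reads in at least 1 library. The 8 neuron markers summed to 8245 to 8528 CPM in SMN, 8597 CPM in IgG and 9119 to 9662 CPM in RiboLace, against 4752 to 5162 CPM in polysomes.

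The members are short genes with many copies, and both facts limit what a count says. Their coding length had a median of 441 bases, from 171 in Rps29 to 954 in Rack1, where the median over all coding genes was 1134. The median member collected 12 to 28 reads in the SMN libraries, 26 in IgG and 5 and 7 in RiboLace, against 184 and 229 in polysomes. No member lacked reads in polysomes or IgG. Rps27 had none in SMN replicate 1, Rps27l none in RiboLace replicate 1, and Rps23, Rps27 and Rps27a none in RiboLace replicate 2, where a count of 0 allows up to 74.1 CPM by counting error (3 counts).

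Of the 35 genes, 23 have named pseudogenes in the table, 104 in all, and 100 of those had reads. Their reads came to 74.3% ± 15.2 (SD, n = 3) of the members' own in SMN, 74.9% in IgG and 83.6% ± 6.79 (SD, n = 2) in RiboLace, against 77.5% ± 0.987 (SD, n = 2) in polysomes. The sources used here do not say how reads with several matching transcripts were handled. Isoforms of 1 gene with the same coding length, and UTRs that differ by at most 30 bases, had the same count in 2.79 to 15.8% of pairs per library, so such pairs were mostly not given equal counts. Their median squared difference over the sum was 0.0889 to 0.652 per library, where an even random split of reads gives 0.455, so in several libraries the counts were closer than such a split. The level of a member with many copies is therefore uncertain, and for the counts of called members below the result with isoforms and pseudogenes summed is given as well.

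The small subunit genes together took between 0.350 and 0.523% of the coding reads of a library. The share was 0.452, 0.350 and 0.477% in SMN replicates 1 to 3, 0.468% in IgG and 0.523 and 0.460% in RiboLace, against 0.413 and 0.369% in polysomes. Both RiboLace libraries, the IgG library and SMN replicates 1 and 3 lay above both polysome libraries, and SMN replicate 2 lay below them. With coding isoforms summed this order did not hold: the share was 0.436, 0.371 and 0.442% in SMN, 0.415% in IgG and 0.511 and 0.468% in RiboLace, against 0.436 and 0.387% in polysomes, and only RiboLace and SMN replicate 3 stayed above both polysome libraries. The group means were 0.426% ± 0.0674 (SD, n = 3) for SMN, 0.491% ± 0.0444 (SD, n = 2) for RiboLace and 0.391% ± 0.0307 (SD, n = 2) for polysomes. For each read on a large subunit gene there were 0.618, 0.610 and 0.661 reads on a small subunit gene in SMN and 0.679 in IgG, and 0.744 and 0.691 in RiboLace against 0.702 and 0.701 in polysomes. All 3 SMN values of this ratio lay below the IgG value and below both polysome values. With 1 IgG library and 2 polysome libraries, an exact permutation test of either difference cannot pass 0.05, and none is given.

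**Figure D1:**
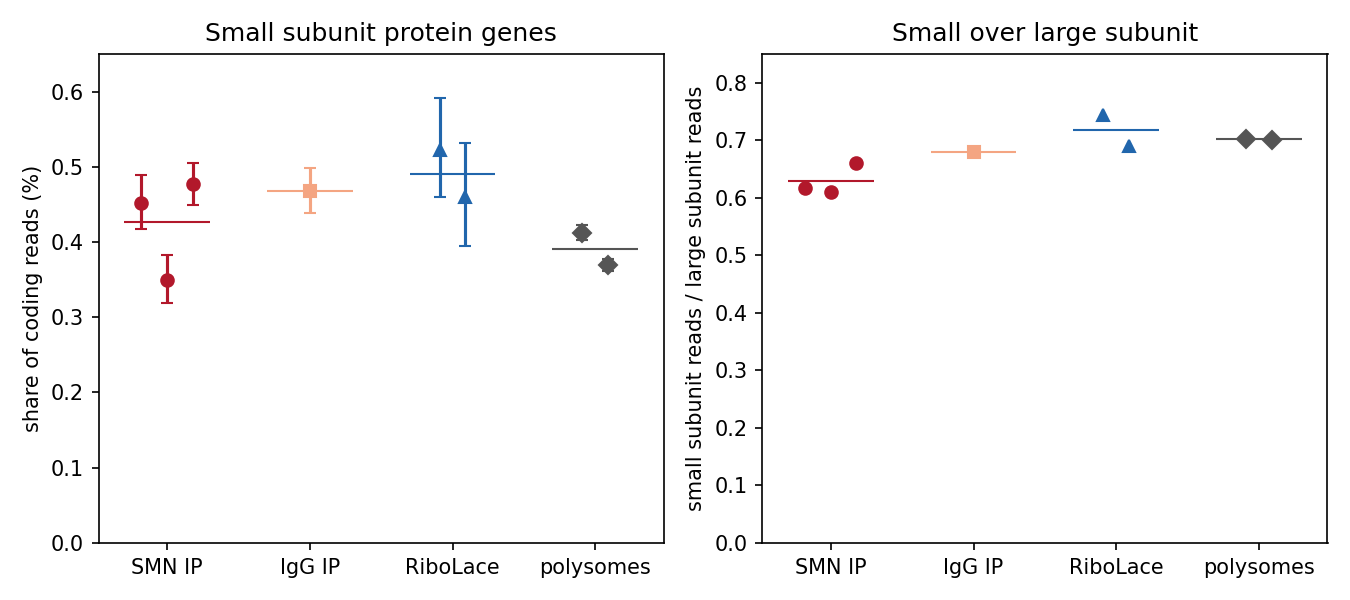
Small subunit protein genes per library: left, their share of coding reads in percent (points are libraries, bars exact 95% binomial intervals that cover counting error only, lines group means); right, reads on small subunit genes divided by reads on large subunit genes. SMN replicate 2 has the lowest share, 0.350%, and the SMN libraries have the 3 lowest ratios.

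Levels of different members can be set side by side only per coding length, here as CPM per kb. In polysomes, the deepest libraries, the members spanned 27.4 to 568 CPM per kb with a median of 177. Rps29, a small zinc-binding protein of the head, was highest at 568 ± 31.4 CPM per kb (SD, n = 2). Fau, whose product is a ubiquitin-like peptide fused to the ribosomal protein S30, followed at 424 ± 4.88, and Rps26, which lines the mRNA exit, at 418 ± 57.8. Fau and Rps26 did not differ beyond the spread of the pair of libraries, while Rps29 lay above Fau in both. At the low end stood Rps2, a protein near the mRNA entry, at 27.4 ± 0.983, the paralogue Rps27l at 81.3 ± 4.59 and Rps19, the gene first linked to Diamond-Blackfan anaemia in humans, at 87.2 ± 2.47. Of the 34 pairs of neighbours in the whole order, 7 were separated in both libraries, and 27 overlapped.

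This order depends on how copies are counted. With coding isoforms and named pseudogenes added to each gene, Fau led with 663 CPM per kb, Rps15a, a protein of the body, moved to rank 2 from rank 26, and Rps19 to rank 10 from rank 33. Rps2, with 8 named pseudogenes, had 188 in place of 27.4 CPM per kb. The lowest on this count were Rps4l with 82.3, Rps27l with 102 and Rps3a1 with 108 CPM per kb. Across the 35 genes, which are not independent replicates, the rank correlation of both counts was 0.29. Over the 35 genes, Spearman's rho of the group means was 0.90 between SMN and IgG, 0.90 between RiboLace and polysomes, 0.76 between SMN and polysomes and 0.77 between IgG and polysomes, all from levels that share coding length. Between single libraries the same value was 0.54 for the RiboLace pair, 0.61 to 0.82 among SMN libraries and 0.99 for the polysome pair. Means of several libraries carry less counting noise than single libraries, so these values and those of the group means are not like for like.

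**Figure D2:**
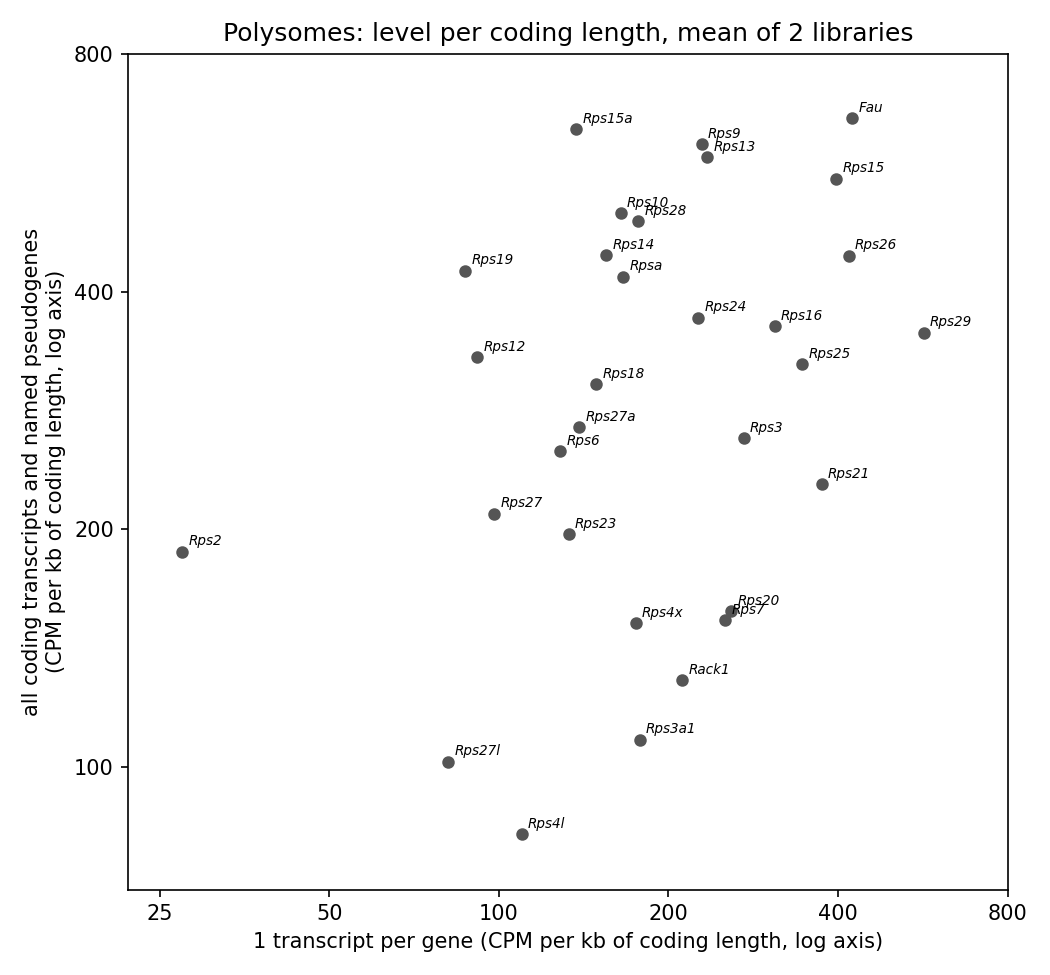
Level of small subunit genes per coding length in polysomes (mean of 2 libraries, CPM per kb, log axes): counted on 1 transcript per gene (horizontal) and with coding isoforms and named pseudogenes added (vertical). Rps15a lies at rank 26 on the first count and 2 on the second, Rps19 at 33 and 10, and Rps2 at 35 and 26.

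Rps27a carries ubiquitin in front of the ribosomal protein. It had 47.2, 48.1 and 75.3 CPM in SMN and 71.6 CPM in IgG, and 141 and 0 CPM in RiboLace against 67.5 and 63.4 CPM in polysomes, and apart from the pair of RiboLace libraries the levels lay close together. Rps27 and Rps27l are paralogues that encode closely related zinc-binding proteins. Rps27 had 0, 16.0 and 39.9 CPM in SMN, 46.0 CPM in IgG and 40.3 and 0 CPM in RiboLace, against 28.0 and 22.1 CPM in polysomes. Rps27l had 7.86, 16.0 and 4.43 CPM in SMN, 25.6 CPM in IgG and 0 and 49.4 CPM in RiboLace, against 26.9 and 24.8 CPM in polysomes. All 3 SMN values of Rps27l, resting on 1, 2 and 1 reads, lay below the IgG and polysome values, and both paralogues had too few SMN reads to be tested there.

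The comparison of SMN with IgG asks which messages were on SMN-bound ribosomes beyond what the beads and antibody collected unspecifically. No small subunit gene passed the test. Of the 31 members tested, 0 were higher, where the background over all 5517 genes tested was 0.0%, and 0 were lower, where it was 0.0181% (edgeR's quasi-likelihood test, with p adjusted by Benjamini-Hochberg and called under 0.05). Single members are given below with the log2 ratio of the fit, its standard error after ± and the adjusted p. None reached an unadjusted p under 0.05, every adjusted p was 0.999, and DESeq2 and limma-voom also called 0 members, with 0 and 1 called of all genes. Rps4l, Rps12, Rps27 and Rps27l had too few reads to be tested. The median log2 fold change of the members was -0.17, with 11 of 31 above 0, against 0.03 for all genes and -0.02 for 45 large subunit genes.

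The members with the highest values included proteins of the body and platform. Rps14, a platform protein whose human gene is lost in the 5q- syndrome, had 126, 72.1 and 151 CPM in SMN against 76.7 CPM in IgG (log2 ratio 0.63 ± 0.61, adjusted p = 0.999). Rps7 had 110.0, 112 and 124 CPM against 76.7 CPM (log2 ratio 0.60 ± 0.62, adjusted p = 0.999), and all 3 SMN values lay above IgG, whereas SMN replicate 2 of Rps14 lay below it. Rps15a and Rps13 had log2 fold changes of 0.49 and 0.48. At the other end, Rps25, a head protein that viral internal entry sites rely on, had 110.0, 112 and 115 CPM in SMN against 164 CPM in IgG (log2 ratio -0.53 ± 0.55, adjusted p = 0.999), and all 3 SMN values lay below IgG. Rps9, Rps28 and Rps18 had log2 fold changes of -0.47, -0.46 and -0.38. Each of these 8 values had a standard error between 0.54 and 0.76, so differences of this size were not detectable with 1 IgG library.

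Counted without a test, all SMN libraries lay above IgG for 5 of the 35 members, where this held for 22.7% of the genes tested. They lay below it for 11, where this held for 22.6%. The 35 include Rps4l, Rps12, Rps27 and Rps27l, which had too few reads to be tested, so members and percentages cover unlike sets. Of these, Rps12 was among the members above IgG, and Rps27 and Rps27l were among those below. By place in the subunit, 3 of 14 tested head proteins and 8 of 17 body and platform proteins had a log2 fold change above 0, with medians of -0.29 and -0.03. Rack1, the scaffold at the head that brings kinases to the ribosome, had 542, 224 and 381 CPM against 476 CPM (log2 ratio -0.31 ± 0.46, adjusted p = 0.999), and its SMN replicates spread around the IgG value. Rpsa, known also as the laminin receptor, had 385, 320.5 and 350.1 CPM against 322 CPM (log2 ratio 0.13 ± 0.49, adjusted p = 0.999), which overlapped too. Fau and Rps6, the target of S6 kinase, had log2 fold changes of 0.22 and -0.24, and Rps27a of -0.27.

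Set against polysomes, footprints of several small subunit genes were higher in both pull-downs. With SMN, 11 of the 33 members tested were higher, where 16.4% of all 6484 genes tested were, and 1 was lower, where 11.1% were (edgeR, adjusted p under 0.05). With IgG, 10 of 35 were higher, where 10.3% of all 12709 genes were, and 2 were lower, where 9.15% were. IgG is 1 library, so the spread in that fit comes from the pair of polysome libraries alone: edgeR's common dispersion was 0.00244, against 0.0770 among the pull-downs in SMN against IgG, and the IgG p-values below carry no replicate spread of the pull-down. The median log2 fold change of the members was 0.43 with SMN, beside -0.02 for all genes and 0.55 for the large subunit, and 0.45 with IgG, beside -0.13 and 0.51. Over all genes tested, the log2 fold change over polysomes rose with coding length (Spearman's rho 0.42 with SMN and 0.34 with IgG), and the members are short. Among the members rho was 0.18 with each. The part of coding length in these medians and shares was not tested. Without a test, all SMN libraries lay above both polysome libraries for 13 of the 35 members, where this held for 22.6% of genes tested. They lay below for 6, where this held for 27.5%. The 35 include Rps27 and Rps27l, which were not tested with SMN, and Rps27l was among those below. IgG lay above for 24, where this held for 42.3%, and below for 7, where it held for 49.8%. The large subunit genes gave 17 higher and 0 lower of 46 with SMN, and 12 and 1 of 48 with IgG. Both comparisons use the same polysome libraries, and since the pull-downs came from Smn+/- and the polysomes from Smn-/- brains, genotype and protocol cannot be told apart here. More ribosomes per message and more message cannot be told apart either, nor, in whole brain, more cells of a type and more RNA per cell, since only footprints were analysed here. Neuron markers, whose sum was larger in the pull-downs than in polysomes, were called higher for 3 of 8 with each, while the log2 fold change was positive for 4 of 8 with SMN (median 0.03) and 5 of 8 with IgG (median 0.09). Meningeal markers summed to 2177 to 3749 CPM in SMN and 3028 CPM in IgG against 695 to 933 CPM in polysomes. The part of these cell types in the members' values was not tested.

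**Figure D3:**
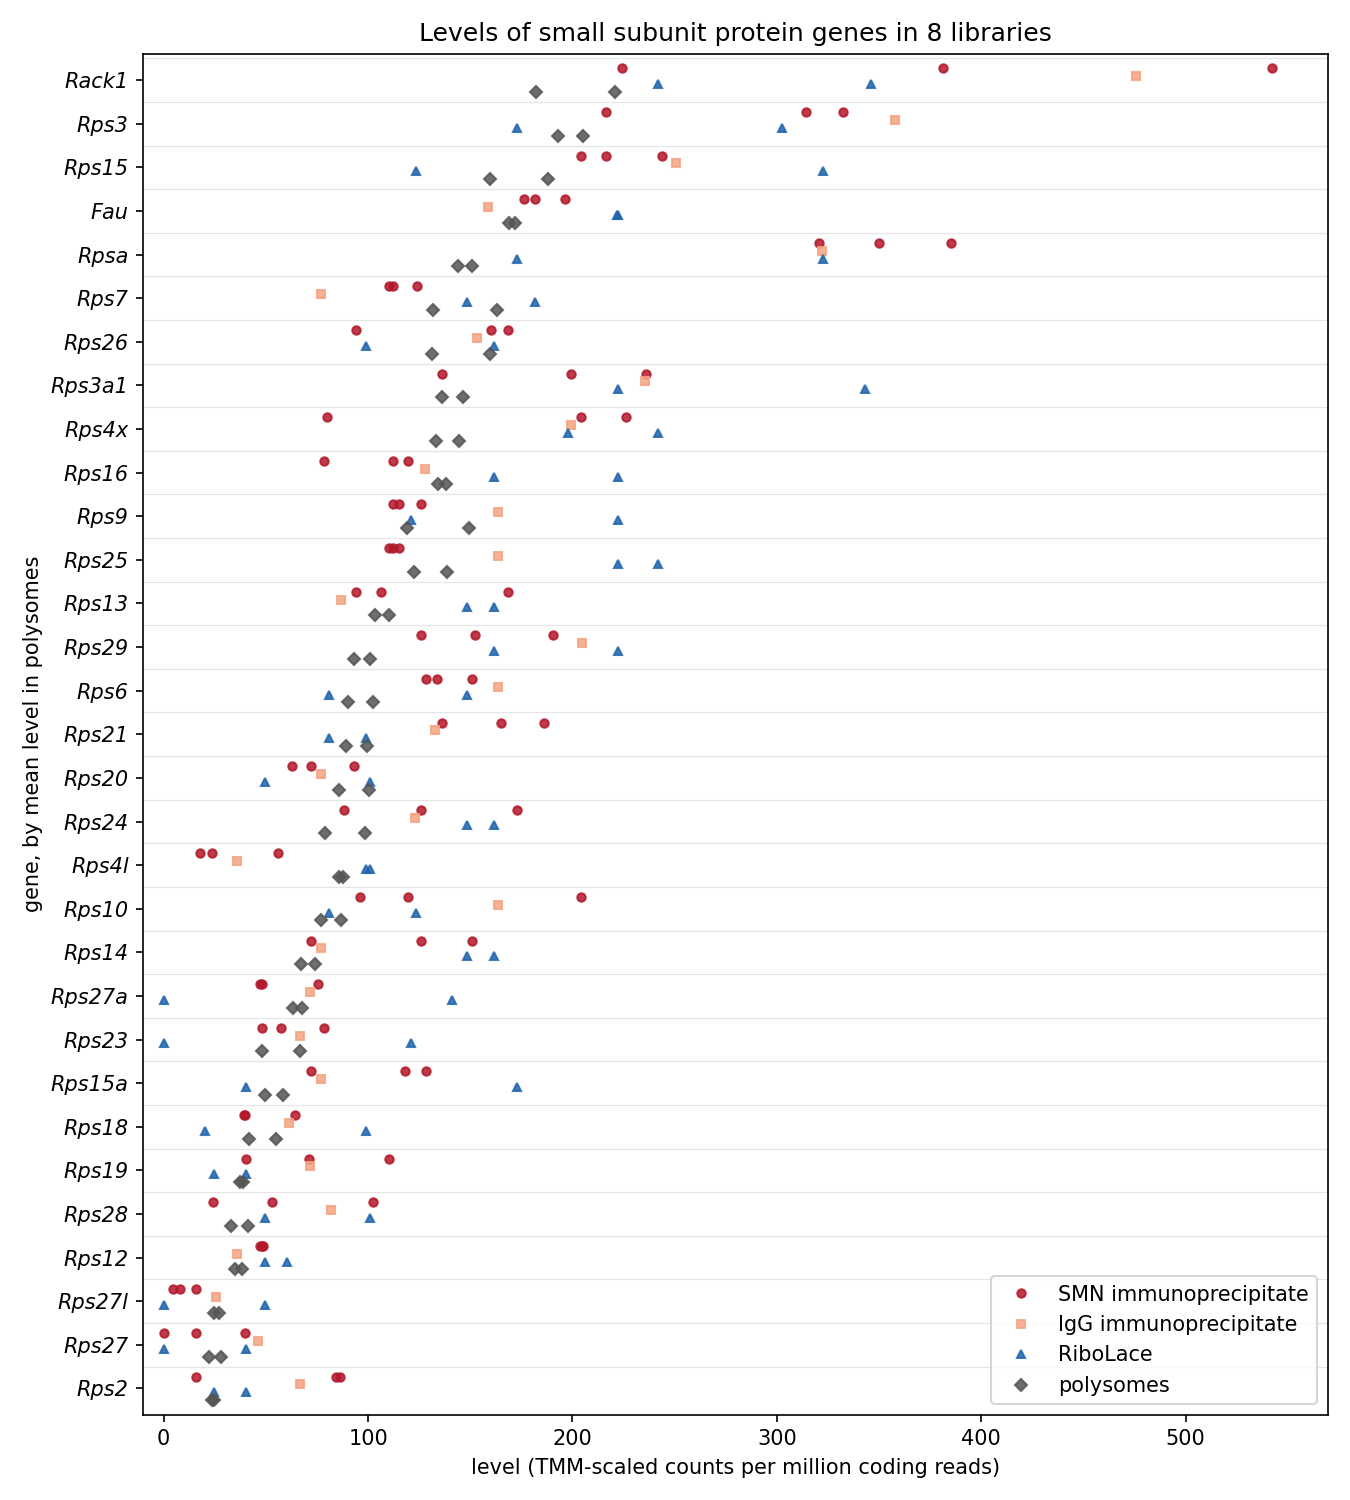
Level of small subunit genes in each of the 8 libraries (TMM-scaled CPM, points are libraries), ordered by the polysome mean. The SMN and IgG points of Rpsa, Rps29 and Rack1 lie to the right of both polysome points, and those of Rps4l to the left.

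Rack1, Rps10, Rps2, Rps29 and Rpsa were among the members higher in both pull-downs. Rpsa, of the body and platform, had 385, 320.5 and 350.1 CPM in SMN and 322 CPM in IgG, against 151 and 144 CPM in polysomes. All 4 pull-down libraries lay above both polysome libraries, with little spread (log2 ratio 1.28 ± 0.23, adjusted p = 0.00143 for SMN, and log2 ratio 1.10 ± 0.21, adjusted p = 7.23e-05 for IgG). Rack1 had 542, 224 and 381 CPM in SMN and 476 CPM in IgG, against 221 and 182 CPM in polysomes. All 4 were higher than the pair, SMN replicate 2 only just (log2 ratio 0.96 ± 0.30, adjusted p = 0.0263 for SMN, and log2 ratio 1.22 ± 0.20, adjusted p = 5.29e-06 for IgG).

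Rps2 gave the largest log2 fold change of the members in both comparisons. It had 86.5, 16.0 and 84.2 CPM in SMN and 66.5 CPM in IgG, against 23.6 and 24.8 CPM in polysomes. SMN replicate 2, with 2 reads, was below polysomes and the other pull-down values were above (log2 ratio 1.48 ± 0.41, adjusted p = 0.0171 for SMN, and log2 ratio 1.42 ± 0.45, adjusted p = 0.0211 for IgG). It has 8 named pseudogenes, and with isoforms and pseudogenes summed the SMN value was 1.05 (adjusted p = 0.063). Rps29 had 126, 152 and 191 CPM in SMN and 205 CPM in IgG, against 101 and 93.3 CPM in polysomes, with no overlap (log2 ratio 0.78 ± 0.23, adjusted p = 0.0213 for SMN, and log2 ratio 1.06 ± 0.25, adjusted p = 0.00152 for IgG). Rps10, a head protein that is ubiquitinated when ribosomes collide, had 204, 96.1 and 119.7 CPM in SMN and 164 CPM in IgG, against 86.7 and 77.2 CPM in polysomes, again with no overlap (log2 ratio 0.77 ± 0.26, adjusted p = 0.041 for SMN, and log2 ratio 0.98 ± 0.28, adjusted p = 0.00802 for IgG).

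Rps14, Rps15a, Rps19 and Rps21 were called with SMN and not with IgG. Rps15a had 118, 72.1 and 129 CPM in SMN against 58.1 and 49.6 CPM in polysomes (log2 ratio 1.08 ± 0.27, adjusted p = 0.0107), and 76.7 CPM in IgG (log2 fold change 0.50). Its SMN and polysome values did not overlap. Rps21 had 165, 136 and 186 CPM against 99.3 and 89.4 CPM (log2 ratio 0.86 ± 0.22, adjusted p = 0.0124), and Rps19 had 110.0, 40.1 and 70.9 CPM against 38.9 and 37.4 CPM (log2 ratio 0.97 ± 0.33, adjusted p = 0.0405), with 133 CPM and 71.6 CPM in IgG. The SMN and polysome values of both were apart, for Rps19 narrowly in SMN replicate 2. Rps14, with the SMN values given above and 76.7 CPM in IgG, had 74.0 and 67.3 CPM in polysomes (log2 ratio 0.84 ± 0.26, adjusted p = 0.0293), and SMN replicate 2 lay among the polysome values. None of these 4 passed the test of the difference between SMN and IgG, where each had an adjusted p of 0.999.

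Conversely, 4 members were called with IgG and not with SMN. Rps28, at the mRNA exit, had 81.8 CPM in IgG against 41.1 and 33.1 CPM in polysomes (log2 ratio 1.13 ± 0.40, adjusted p = 0.0392). Rps3, at the mRNA entry, had 358 CPM against 205 and 193 CPM (log2 ratio 0.82 ± 0.20, adjusted p = 0.00225), and Rps6 had 164 CPM against 103 and 90.2 CPM (log2 ratio 0.75 ± 0.27, adjusted p = 0.044). Rps3a1, of the platform, had 235 CPM against 146 and 136 CPM (log2 ratio 0.71 ± 0.23, adjusted p = 0.022). In SMN these 4 had log2 fold changes of 0.71, 0.58, 0.58 and 0.47 over polysomes, and each had an adjusted p of 0.999 between SMN and IgG.

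Rps4l, a paralogue of the X-linked Rps4x, moved the other way in both pull-downs. It had 23.6, 56.1 and 17.7 CPM in SMN and 35.8 CPM in IgG, against 85.6 and 87.8 CPM in polysomes. Every pull-down value lay below both polysome values (log2 ratio -1.53 ± 0.38, adjusted p = 0.00928 for SMN, and log2 ratio -1.30 ± 0.44, adjusted p = 0.0337 for IgG), though the pull-downs rest on 3 to 7 reads each. Rps4x itself had 204, 80.1 and 226 CPM in SMN and 199 CPM in IgG, against 144 and 133 CPM in polysomes, with log2 fold changes of 0.41 and 0.50 that did not pass (adjusted p = 0.255 and 0.145). Rps7, a body protein, was lower in IgG, at 76.7 CPM against 163 and 132 CPM in polysomes (log2 ratio -0.95 ± 0.34, adjusted p = 0.0439). In SMN it had 110.0, 112 and 124 CPM and did not pass (log2 fold change -0.29, adjusted p = 0.386).

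**Figure D4:**
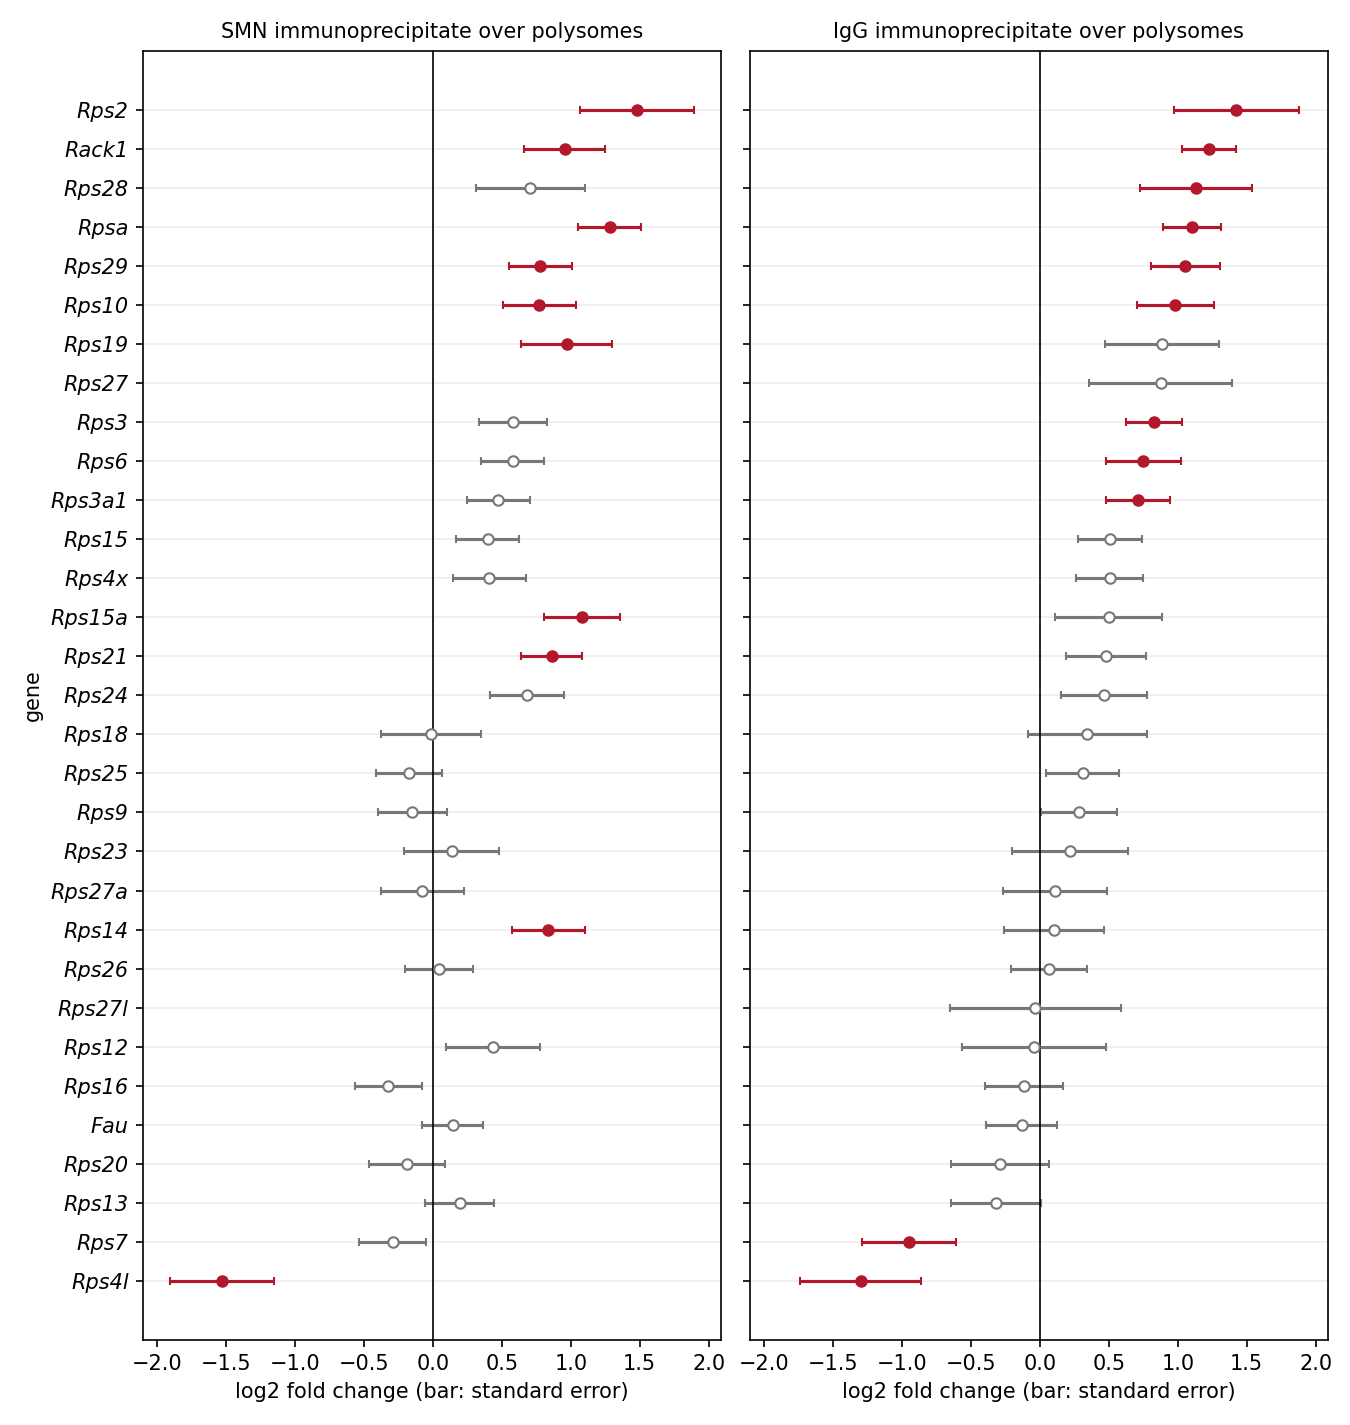
Log2 fold change of small subunit genes over polysomes in the SMN immunoprecipitate (left, genes not tested have no point) and in the IgG immunoprecipitate (right); points are edgeR estimates, bars standard errors, and filled red points passed an adjusted p of 0.05. Both panels share the polysome libraries. Rps2, Rack1, Rpsa, Rps29 and Rps10 are red on the right of 0 in both, and Rps4l on the left in both.

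The remaining members did not pass the test against polysomes. Among them, the values with SMN included -0.32 for Rps16, -0.19 for Rps20 and -0.17 for Rps25 at the low end, and 0.71 for Rps28 at the high end. With IgG, low values short of the test were those of Rps13 (-0.32) and Rps20 (-0.29), and the highest were those of Rps19 (0.88) and Rps27 (0.88). Rps24, whose SMN values of 126, 88.1 and 173 CPM overlapped the 98.7 and 78.8 CPM in polysomes, had log2 fold changes of 0.68 with SMN and 0.46 with IgG. Rps15 had 0.40 with SMN and 0.51 with IgG, and Rps12 had 0.43 and -0.05. Rps23, a protein of the decoding centre, had 0.14 and 0.21, and Rps26 had 0.04 and 0.07. For Rps18 and Rps9 the SMN values were -0.01 and -0.15, and the IgG values 0.34 and 0.28. Fau had 196, 176 and 182 CPM in SMN and 159 CPM in IgG, against 169 and 172 CPM in polysomes, so SMN lay just above and IgG just below (log2 fold changes 0.14 and -0.13). Rps27a had log2 fold changes of -0.08 and 0.11, with the groups overlapping in SMN. Set against the 11 of 33 members higher with SMN and 10 of 35 with IgG, and the 16.4% and 10.3% of all genes, head proteins gave 5 higher of 15 with SMN and 5 with IgG, and body and platform proteins 6 of 17 with SMN and 5 of 18 with IgG. Genes tied to Diamond-Blackfan anaemia in humans gave 4 of 10 with SMN (Rps10, Rps15a, Rps19 and Rps29) and 3 of 11 with IgG (Rps10, Rps28 and Rps29), where Rps7 was the 1 lower. Of the 8 genes shown with a pyrimidine run at the start, Rack1, Rps10, Rps15a and Rps21 were called higher with SMN and Rack1, Rps10 and Rps6 with IgG, and these counts were not tested against the background.

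The counts of called members depended on the libraries and on the counting. Without SMN replicate 2, 17 members were higher and 2 lower with SMN, as were 1755 and 1593 of the 10996 genes then tested. Without SMN replicate 1, 2 members were higher and 0 lower, beside 441 and 154 of 10929 genes. Without SMN replicate 3, 1 was higher and 0 lower, beside 376 and 91 of 10827 genes, so calls fell over all genes too. Leaving out polysome replicate 1 or 2 leaves 1 polysome library. The members' median log2 fold change was then 0.48 or 0.31, beside 0.02 or 0.03 for all genes. With isoforms and pseudogenes summed, an alternative added after seeing the data, 0 members were higher and 2 lower with SMN (of all 8895 genes tested, 679 and 430), and 13 and 2 with IgG (of all 13464 genes, 2136 and 1911). In a fit of all 8 libraries, where the spread of the other groups is shared with IgG, the IgG counts were 4 higher and 0 lower of 33 members, beside 703 and 393 of 6974 genes, so the share called higher was near that of all genes. Across the alternatives Rpsa was called with SMN in 12 of 15 (log2 fold change from 0.92 to 1.31), Rps4l in 9 of 14 (from -2.12 to -1.12), and each other member called with SMN in 3 to 7. With IgG, Rps6 was called in 2 of 9 alternatives, Rps28 and Rps7 in 4 of 9 each, Rps3a1 in 5 of 9, Rps4l in 6 of 9, Rps10, Rps2 and Rps3 in 7 of 9 each and Rps29 in 8 of 9. Rpsa and Rack1 were called in 9 of 9, with ranges of 0.88 to 1.17 and 1.04 to 1.29.

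RiboLace against polysomes compares both kinds of capture within Smn-/-; SMN2tg/0 brains. No small subunit gene passed the test. Of 35 members, 0 were higher, where 1.31% of 10807 genes were, and 0 lower, where 0.925% were (edgeR, adjusted p under 0.05). An unadjusted p under 0.05 was reached by 5 members, all with positive values. DESeq2 called 0 members, and limma-voom called 0 of all 10807 genes, so that its 0 says nothing of the members. The median log2 fold change was 0.17, with 25 of 35 positive, beside -0.29 for all genes and 0.28 for 48 large subunit genes. Both RiboLace libraries lay above both polysome libraries for 14 members, where this held for 21.2% of genes, and below for 0, where it held for 32.8%. When only genes with a minimum count of 50 were tested, the medians were 0.39 for the members and -0.06 for all genes.

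Rps3a1, a protein of the platform, came closest, with 343 and 222 CPM in RiboLace against 146 and 136 CPM in polysomes (log2 ratio 0.90 ± 0.32, adjusted p = 0.11). Rps14 had 161 and 148 CPM in RiboLace against 74.0 and 67.3 CPM in polysomes (log2 ratio 1.01 ± 0.45, adjusted p = 0.237). Rps29 had 161 and 222 CPM against 101 and 93.3 CPM (log2 ratio 0.83 ± 0.39, adjusted p = 0.278). In these 3 genes both RiboLace values lay above both polysome values. Rps25 had 242 and 222 CPM against 139 and 122 CPM (log2 fold change 0.71, unadjusted p = 0.0395) and Rpsa had 323 and 173 CPM against 151 and 144 CPM (0.66, unadjusted p = 0.045), also without overlap. Rps28, with 101 and 49.4 CPM against 41.1 and 33.1 CPM (log2 fold change 0.95), and Rps15a, with 40.3 and 173 CPM against 58.1 and 49.6 CPM (0.77), had high values with standard errors of 0.66 and 0.56. With isoforms and pseudogenes summed, 2 of 35 members passed as higher in edgeR, as did 245 of all 11817 genes tested. Rpsa was among them (log2 fold change 1.04, adjusted p = 2.41e-05). With a minimum count of 50, Rps3a1 was the 1 passing of 29 members (edgeR, adjusted p = 0.0159), beside 258 of 4923 genes.

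At the low end were Rps20, with 101 and 49.4 CPM in RiboLace against 100.4 and 85.8 CPM in polysomes (log2 ratio -0.38 ± 0.53, adjusted p = 0.811), and Rps27l and Rps19, with log2 fold changes of -0.34 and -0.32 and standard errors of 1.08 and 0.87. Rps27 and Rps26 followed at -0.28 and -0.24. The groups overlapped in all of them. Fau had 222 and 222 CPM in RiboLace against 169 and 172 CPM in polysomes, a narrow pair above a narrow pair, but short of the test (log2 ratio 0.25 ± 0.34, adjusted p = 0.802). Rack1 had 242 and 346 CPM against 221 and 182 CPM (0.40, adjusted p = 0.548), again without overlap. Rps6 had 80.7 and 148 CPM against 103 and 90.2 CPM (0.08), which overlapped, and Rps2 and Rps4l, called in the pull-downs, had 0.32 and 0.07. Red blood cell markers summed to 5083 to 6203 CPM in RiboLace against 1741 to 2342 CPM in polysomes, and their part in the members' values was not tested.

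**Figure D5:**
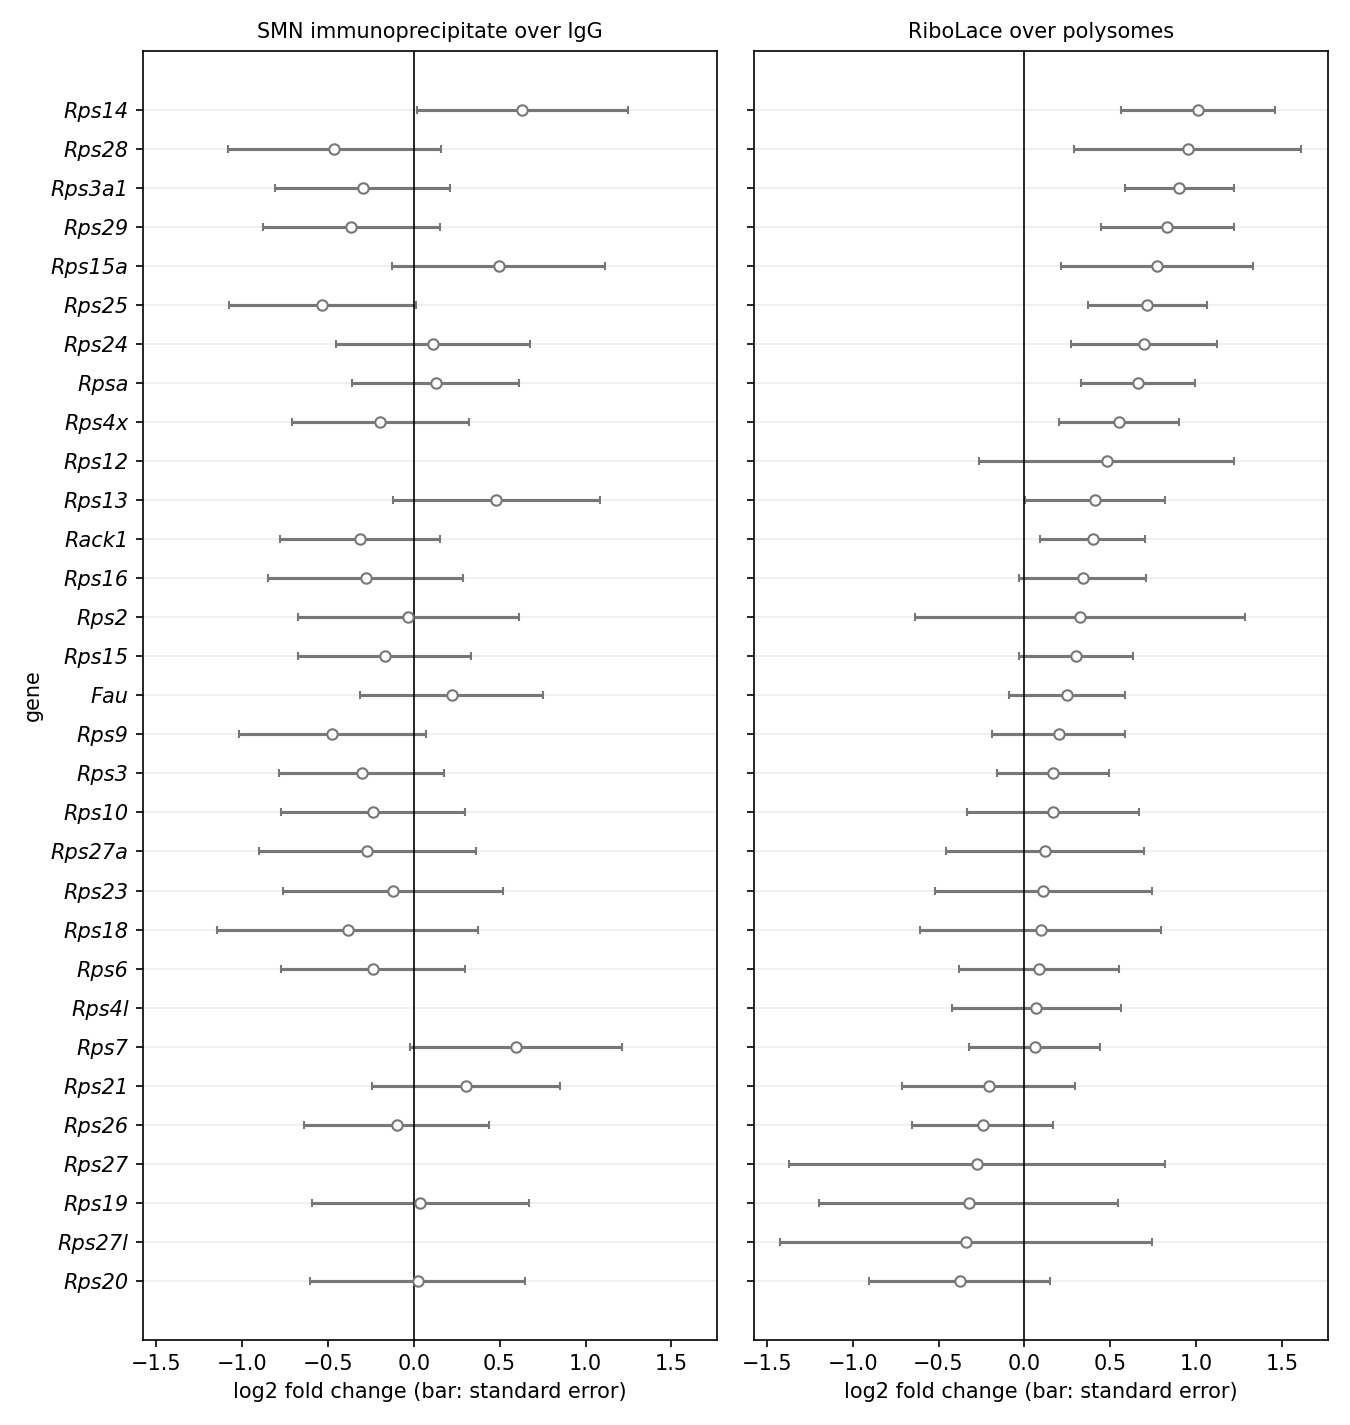
Log2 fold change of small subunit genes in the SMN immunoprecipitate over IgG (left, genes not tested have no point) and in RiboLace over polysomes (right); points are edgeR estimates and bars standard errors. No point passed an adjusted p of 0.05. Values lie on both sides of 0 on the left, and most lie above 0 on the right.

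Among genes that act on the small subunit, some were higher and some lower against polysomes. Their counts are to be read against the shares of all genes called, 16.4% higher and 11.1% lower with SMN, 10.3% and 9.15% with IgG, and 1.31% and 0.925% with RiboLace. Of 43 listed factors of small subunit assembly, 3 of 28 tested were higher and 3 lower in SMN against polysomes, and 5 and 3 of 42 in IgG against polysomes. Nop56, a core protein of box C/D snoRNPs, was higher in both (log2 fold change 1.08, adjusted p = 0.0183 for SMN, and log2 fold change 1.40, adjusted p = 0.000961 for IgG). In RiboLace against polysomes 1 was higher, Npm1, the nucleolar chaperone nucleophosmin (log2 fold change 1.20, adjusted p = 0.0234 in edgeR). Bysl and Rrp12 were the 2 lower (log2 fold change -3.52, adjusted p = 0.00633 for Bysl). Lower calls depended on the method: of all 10807 genes, edgeR called 100 lower, DESeq2 6 and limma-voom 0. The median log2 fold changes of the assembly factors were -0.10 in SMN against IgG, -0.51 in RiboLace against polysomes, -0.05 in SMN against polysomes and 0.04 in IgG against polysomes. Of 25 initiation factors that bind the small subunit, 4 were higher and 4 lower with SMN, and 5 and 6 with IgG, where Eif4g1, the scaffold of the cap-binding complex, was higher (log2 fold change 1.90, adjusted p = 0.000798 for SMN, and log2 fold change 2.30, adjusted p = 4.76e-11 for IgG) and the helicase cofactor Eif4b was lower in IgG (log2 fold change -1.42, adjusted p = 0.000169). Of 16 other TOP messages, not ribosomal, 3 were higher and 1 lower with SMN and 3 and 3 with IgG, and Eef1a1, the factor that delivers aminoacyl-tRNA, was higher with SMN (log2 fold change 1.45, adjusted p = 0.00554), with IgG (log2 fold change 1.65, adjusted p = 2.42e-11) and in RiboLace (log2 fold change 1.08, adjusted p = 1.01e-07). In SMN against IgG 0 genes of these 3 lists passed in edgeR, 2 had an unadjusted p under 0.05, and the medians were 0.12 for initiation factors and -0.18 for TOP messages.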

How the data were processed

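Ribosome footprints were measured in 8 libraries, and the authors deposited raw counts of reads per Ensembl transcript with transcript, UTR and coding lengths, in bases, per the file headers. Reads were trimmed with Trimmomatic 0.36 and aligned with Bowtie2 2.2.6 to GRCm38.p4, and SAMtools was used, per the submitters' processing notes; the annotation release and the treatment of reads with several matches are not given in the sources used here.

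From these counts, 1 coding transcript per gene was kept, the one with the highest sum over libraries scaled to a common total. The small subunit genes and the lists of related genes and markers were chosen with earlier results of these data known. Counts were tested with edgeR 4.0.16 (R 4.3.3; TMM, robust quasi-likelihood fit, filterByExpr with a minimum count of 10) in the libraries of the groups compared, with p-values adjusted by Benjamini-Hochberg over all genes tested and called under 0.05. The 1 IgG library was assumed to vary like the group it was compared with. The alternatives were DESeq2 1.42.0, limma-voom (limma 3.58.1), other scalings, filters, samples and counts per gene, and leaving out libraries; the script was tested on simulated counts. Standard errors of log2 fold changes were derived from the quasi-likelihood statistic. The text names every member called, the 5 highest and 5 lowest per comparison, the 3 highest and 3 lowest per length, and 7 genes named in any case (Rpsa, Rack1, Fau, Rps27a, Rps6, Rps27 and Rps27l), and others where groups were described. Some members count in every total, median and share but are not reported singly or drawn here. Total counts on coding genes per library, 39375 to 2295393, limit the precision. Intervals and floors cover counting error only, since reads are not independent molecules. Figures were drawn with matplotlib 3.10.9.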

Additional observations from a re-analysis of the deposited data

How the results depend on the processing

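In SMN against IgG no alternative called a member, and leaving out a library gave medians of -0.27 to -0.09; Rps18 turned to 0.10 with isoforms summed and 0.15 with pseudogenes added. In SMN against polysomes the members called higher and lower were 4 and 1 by DESeq2, beside 850 and 378 of all 6484 genes tested. They were 5 and 2 with library totals, beside 636 and 1578, and 8 and 1 by limma-voom, beside 1017 and 358. Without a filter they were 7 and 1, beside 908 and 1215 of 17292 genes. With a minimum count of 50, which left 3 members to test, they were 1 and 0, beside 194 and 166 of 1220. With isoforms summed they were 2 and 2, beside 681 and 434 of 8940. With pseudogenes added they were 0 and 2, beside 679 and 430 of 8895. Leaving out an SMN library gave 1 to 17 higher and 0 to 2 lower, with the counts over all genes given above. Medians were 0.28 to 0.48 when any library was left out. The median was 0.14 with library totals, which moved the median of all genes to -0.31, and 0.76 with a minimum count of 50. Fau turned to -0.15 with library totals and -0.024 without a filter, and Rps27a to 0.017 by limma-voom, with -0.46 to 0.033 when a library was left out. In IgG against polysomes, where IgG is 1 library, fewer members and fewer of all genes were called by DESeq2 and in a fit of all 8 libraries. The members' median was 0.48 by DESeq2, 0.26 with library totals and 0.46 with scaling factors that left out ribosomal protein genes. That of all genes was -0.09, -0.32 and -0.13 in the same settings. With a minimum count of 50, by limma-voom and in the fit of all 8 libraries the members' median was 0.53, 0.47 and 0.48. All genes had -0.05, 0.02 and -0.03. Rps27a turned to -0.080 with library totals and -0.12 with isoforms summed, Fau to 0.074 and 0.072 with isoforms summed and pseudogenes added, and Rps27l to 0.094 by limma-voom and 0.026 with isoforms summed, also with pseudogenes added. Leaving out a polysome library was not run there, since 1 library against 1 leaves no residual degrees of freedom. In RiboLace against polysomes 1 member was higher with a minimum count of 50, beside 258 of 4923 genes. With pseudogenes added 2 were, beside 245 of 11817. The median was 0.23 by DESeq2, 0.073 without a filter, 0.39 with a minimum count of 50 and 0.28 by limma-voom. It was 0.33 with all 8 libraries and 0.15 to 0.54 when a library was left out. Rps6 turned to -0.0089 without a filter, Rps19 to 0.0096 and Rps27a to -0.93 by limma-voom, Rps27a to -0.40 with isoforms summed, and Rps19 and Rps26 to 0.20 and 0.11 with pseudogenes added. When a library was left out, the values spanned -9.58 to 0.96 for Rps27a, -8.25 to 0.71 for Rps27l, -0.00044 to 0.98 for Rpsa, -0.56 to 1.46 for Rps15a, -0.77 to 0.0099 for Rps26, -8.18 to 0.56 for Rps27 and -0.40 to 0.40 for Rps6, where the lowest values of Rps27a, Rps27l and Rps27 come from a RiboLace library at 0 reads, depend on the prior count and are no bounds. With the replicate number as a replicate block, 1 member was higher and 0 lower in SMN against polysomes (median 0.30), beside 279 and 92 of 6484 genes. In RiboLace against polysomes it gave 0 and 0 (median 0.15), beside 58 and 0 of 10807 genes. The labels do not say that a number marks a shared animal or day. Deviations of same-numbered libraries from the mean of replicates 1 and 2 had correlations of 0.0208 in the SMN comparison and 0.0234 in the RiboLace one. With few reads per gene in the SMN and RiboLace libraries, these values cannot tell whether animals or days were shared. The causes of these changes were not tested. Counts were also simulated with the library sizes and spread of each comparison, with 2-fold changes in 100 genes each. They were recovered in 1 in SMN against IgG and 6 in RiboLace against polysomes. In SMN against polysomes 57 were recovered, and 20 in IgG against polysomes. Library sizes, spread and numbers of libraries differ between these comparisons, and the part of each in the recovery was not tested.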
